A study of Arabidopsis thaliana with 18 samples.

Results

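Opening of the wild-type flower of *Arabidopsis thaliana* was followed as the change in transcript levels between stage 12, the largest closed buds, and stage 13, the first open flowers. The 6 arrays used were those labelled wild type, 3 per stage, out of 18 arrays in the series, and 22746 of the 22810 probe sets on the Affymetrix ATH1 array were tested after 64 control probe sets were left out. The other 12 arrays hold the *arf6-2 arf8-3* double mutant (2 auxin response factors) and the *myb21-5 myb24-5* double mutant (2 R2R3-MYB transcription factors). They carry the same stage labels, with 3 arrays per genotype and stage, and served only to show where the wild-type change differed. The study describes the flowers of both mutants as staying closed, so the label stage 13 does not mean an open flower there. It presumes that the mutant data of stage 13 hold many indirect effects of this arrest. All plants were of the columbia ecotype, were grown with 16 hours of light and 8 hours of dark, and gave flowers 2 to 4 hours after subjective dawn. Per the methods the 3 arrays of a stage are biological replicates, which are lettered A to C. The sources used here do not say how many flowers or plants went into each, or which arrays used Trizol and which RNeasy columns for RNA.

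Values are log2 expression values (RMA), and 3 values in a row are always those of replicates A, B and C. Medians of the 6 arrays lay between 7.717 and 7.785. Correlations over all probe sets were 0.986 to 0.993 within a stage and 0.956 to 0.979 between the stages, and stage 12 replicate B lay nearest to the stage 13 arrays. For the GAPDH control probe sets, the 3′ value exceeded the 5′ value by 0.534 to 1.512 at stage 12 and by 0.789 to 1.168 at stage 13, with the highest value in replicate B at either stage, so this sign of RNA or labelling quality overlapped between the stages. A gene name stands for a probe set that matches 1 gene, which holds for 14025 probe sets, of which 512 are named only through tables of the study. Those tables list genes that the study chose on these same arrays because they differed between a mutant and wild type at stage 12. Where a list holds calls, members named through them are counted apart, and they are not independent evidence of a list's direction. Counts given below for the study's tables cover only these members. The split is by the source of the name. Members named through the platform table can be in those tables as well, as *SWEET9* and *TPS11* are, so they are not a group free of that choice.

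In a maturing flower, petals and stamen filaments elongate, anthers open and release pollen, the gynoecium becomes ready for pollination, and nectaries and petals make nectar and scent within a short window. Auxin response factors ARF6 and ARF8 act upstream of jasmonate production, and jasmonate in turn raises the activity of *MYB21* and *MYB24*, whose products promote petal and filament growth. By stage 12 pollen grains are close to mature, and from stage 13 onward pollen leaves the anthers.

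Between the stages, 429 probe sets were higher in open flowers and 437 were lower at an adjusted p under 0.05 (limma, two-sided, Benjamini-Hochberg over 22746 probe sets) and at least a 2-fold change. These are 1.89% and 1.92% of the probe sets tested, and changes that met both conditions are called higher or lower below. Over all probe sets the median change was -0.008 on the log2 scale, and the median standard error of a change was 0.13. The falls were steeper at the far end, with 139 probe sets called lower and 94 called higher past 4-fold, and 59 lower and 13 higher past 8-fold. For all 866 called probe sets, the 3 arrays of one stage lay above the 3 of the other. Over all probe sets tested, that was so for 2500 in the direction of stage 13 and 2746 in the direction of stage 12.

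**Figure D1:**
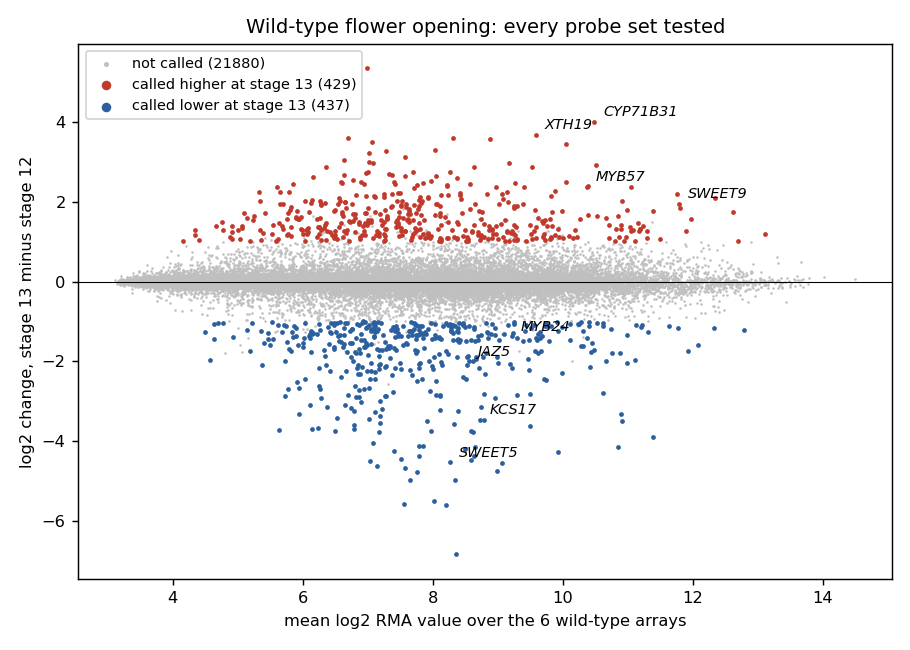
Log2 change from stage 12 to stage 13 (vertical axis) against the mean log2 value over the 6 wild-type arrays (horizontal axis), 1 point per probe set. The 429 probe sets called higher are red, the 437 called lower are blue, and 59 of the blue points lie past an 8-fold fall against 13 red points past an 8-fold rise.

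The largest measured falls were in *SWEET5* and 14 genes known in the tables used here by locus only, at 17.2- to 45.1-fold. The deposited values carry no detection call or background level, and for 8 of the 15 the open-flower mean lay under 6, the cutoff of the low-value filter tried as an alternative, so for these the fold and its rank rest on readings near the low end of the scale. *SWEET5*, a sugar transporter named by RefSeq also for its expression in the pollen vegetative cell, read 11.03, 10.16 and 10.41 in closed buds and 6.14, 5.81 and 6.07 in open flowers. All 3 bud arrays lay far above all 3 open-flower arrays, and *SWEET5* fell by 4.52 (SE 0.22, adjusted p = 7.12e-05). *At1g66850* had the largest fall, from 11.11, 9.78 and 11.42 to 4.83, 5.38 and 5.61, a log2 change of -5.50 (SE 0.41, adjusted p = 0.000366). *At5g55720* read 10.31, 10.08 and 10.01 against 5.14, 5.03 and 5.35, and its replicates were so close together that its adjusted p was 8.48e-06. *At5g22430* read 13.20, 12.57 and 13.01 in closed buds and 8.67, 8.54 and 9.12 in open flowers. The open flowers were not alike for all of them. For *At5g53820*, stage 13 replicate C read 5.46 while replicates A and B read 7.80 and 7.11, and for *At3g28840* replicate C read 6.70 against 8.46 and 8.23. In closed buds it was replicate B that lay lower, as for *At1g23240*, which read 10.47, 8.26 and 10.46 and fell by 4.43 (SE 0.55, adjusted p = 0.00272). The other 8 genes, *At2g29790*, *At2g16750*, *At1g71680*, *At5g44300*, *At3g21970*, *At4g13230*, *At1g52680* and *At5g46940*, fell by 4.11 to 4.76. All 15 stayed called whichever of the 6 arrays was left out.

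**Figure D2:**
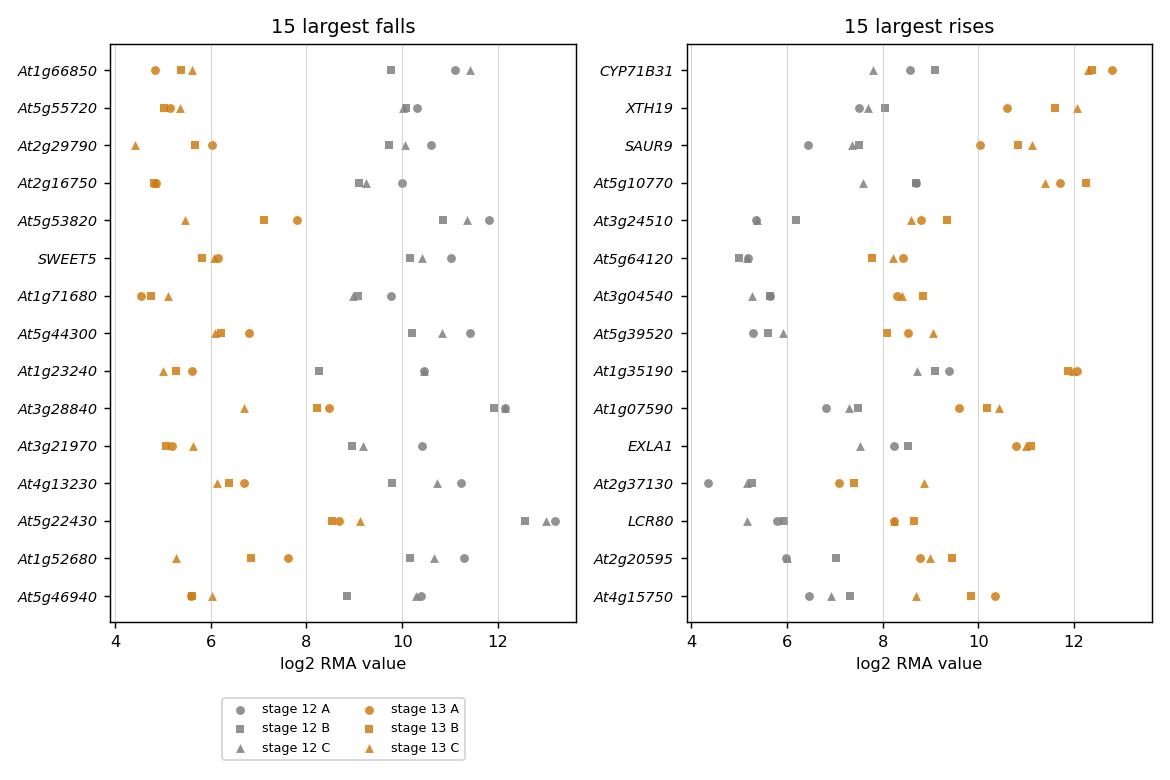
Log2 RMA values of each of the 6 wild-type arrays (horizontal axis) for the 15 largest falls (left) and the 15 largest rises (right) among called probe sets that match 1 gene, with circles for replicate A, squares for B and triangles for C. Grey points are stage 12 and orange points stage 13. In no gene do the colours overlap, as the choice of these genes required.

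Genes of pollen maturation and pollen tube growth were lower in open flowers where they were called. Of 30 measured members of a list of 78, 8 were lower and 0 higher, with a median change of -0.49. Those named through the platform table were 14, of which 3 were lower (median -0.46), and those named through the study's tables were 16, of which 5 were lower (median -0.69). *AGL66*, a MADS box factor needed for pollen maturation, read 9.16, 8.91 and 9.05 in buds and 7.32, 7.13 and 6.33 in open flowers, and its partner *AGL104* read 8.31, 7.40 and 7.60 against 6.45, 6.29 and 5.66. In both genes, stage 13 replicate C was the lowest array. The changes were -2.11 (SE 0.24, adjusted p = 0.00184) for *AGL66* and -1.63 (SE 0.28, adjusted p = 0.0102) for *AGL104*. *PRF5*, an actin-binding profilin of pollen, went from 11.81, 11.19 and 11.45 to 9.89, 9.29 and 8.86, a fall of 2.14 (SE 0.26, adjusted p = 0.00274). *RABA4D*, a Rab GTPase of the growing pollen tube tip, read 8.04, 7.52 and 7.69 and then 6.06, 6.21 and 6.09 (-1.63, SE 0.15, adjusted p = 0.000751). The ion channel gene *CNGC18*, the syntaxin gene *SYP125* and the reproductive actins *ACT4* and *ACT12* were also lower, by 1.08 to 1.59. *ACT4* lost its call when any array other than stage 13 replicate A was left out (adjusted p 0.0595 to 0.117), *ACT12* without stage 12 replicate A (-0.91) or stage 13 replicate C (-0.99), and *SYP125* without stage 13 replicate C (-0.97). Without stage 13 replicate C, 5 of the 30 members were lower. The 22 members not called ranged from *ANX1* at -0.93 to *ADF11* at 0.81, so pollen genes differed widely among themselves.

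All 10 measured marker genes of pollen, of 15 listed, are also members of the list above, so they describe the same genes once more as a level per array. Of these 10, 5 were lower, with a mean level over the 10 of 9.53, 9.23 and 9.17 in buds and 8.65, 8.45 and 8.11 in open flowers. The range of 9.17 to 9.53 did not overlap that of 8.11 to 8.65. In RNA from whole flowers, fewer pollen grains per flower, less of these transcripts per grain and a changed share of other tissues cannot be told apart. For the tapetum, the nurse layer of the anther, 1 of 12 marker genes was measured, *AMS*, which read 4.53, 4.21 and 4.70 against 4.16, 3.90 and 4.03 and was not called. The tapetum and pollen wall list had 4 measured members of 41 and 0 calls, with *SWEET8* at -0.55 (adjusted p = 0.0494, under 2-fold) and *AMS* at -0.45 (adjusted p = 0.128). The part of pollen loss in other falls was not tested.

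Further falls were picked out after their values were seen, and they form no list. Of 7 measured genes of the CHX family, cation/H+ exchangers many of which are expressed in pollen, 5 were lower and 0 higher (median -1.32). *CHX19* led with 9.33, 8.10 and 8.19 in buds against 6.17, 6.27 and 6.19 in open flowers, a change of -2.33 (SE 0.30, adjusted p = 0.00306), and *CHX24*, *CHX15*, *CHX1* and *CHX20* followed at -1.69 to -1.05, of which *CHX20* fell short of 2-fold without stage 12 replicate C (-0.89) or stage 13 replicate A (-0.91). *ANN5*, an annexin, read 7.77, 7.27 and 7.17 against 5.72, 5.41 and 4.78. *MGH3*, a histone H3 variant of male gametes, fell by 1.33 (SE 0.23, adjusted p = 0.0104), and missed the call without stage 13 replicate B (adjusted p = 0.0554). Outside these families, *ATA27*, a beta-glucosidase gene, read 8.71, 6.85 and 8.65 in buds and 4.22, 4.39 and 4.63 in open flowers, so that stage 12 replicate B was again the lowest bud array. The same order was seen in *LEA*, which encodes a dehydrin, at 9.36, 6.35 and 9.43 against 4.45, 4.56 and 4.86 (adjusted p = 0.0192). *LEA* missed the call without stage 12 replicate A or C or stage 13 replicate B or C (adjusted p 0.0536 to 0.0822). The cold-regulated genes *COR15A* and *COR15B* were both lower, by 1.10 and 1.78, though *COR15A* was at -0.89 without stage 12 replicate C.

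Among the 15 largest rises were genes of scent metabolism, of the cell wall and of the auxin response, together with peptide genes. The greatest rise was in *CYP71B31*, a cytochrome P450 that oxidises the scent terpene linalool. It read 8.57, 9.08 and 7.80 in closed buds and 12.80, 12.38 and 12.29 in open flowers, a 16.1-fold rise (4.00 on the log2 scale, SE 0.30, adjusted p = 0.000404). *XTH19*, which encodes an enzyme that cuts and rejoins xyloglucan in the wall, rose from 7.50, 8.05 and 7.70 to 10.60, 11.60 and 12.06 (3.67, SE 0.34, adjusted p = 0.000852), and *SAUR9*, a small auxin up RNA gene, rose from 6.43, 7.51 and 7.36 to 10.04, 10.82 and 11.13 (3.56, SE 0.35, adjusted p = 0.000984). For either gene, stage 13 replicate A was the lowest open-flower array. *At5g10770*, described in the study's tables as a putative chloroplast nucleoid DNA-binding protein, read 8.70, 8.69 and 7.60 against 11.70, 12.25 and 11.39. *At5g64120*, which encodes a class III peroxidase, read 5.19, 4.99 and 5.16 in buds and 8.43, 7.79 and 8.22 in open flowers, with a change of 3.03 (SE 0.17, adjusted p = 0.00012). *At1g35190*, of the 2OG-Fe(II) oxygenase family, read 9.38, 9.10 and 8.71 in buds and 12.06, 11.88 and 11.97. These 2 genes had some of the smallest errors of the group. *EXLA1* (an expansin-like gene), *LCR80* (a cysteine-rich peptide gene) and 7 genes known by locus only, *At3g24510*, *At3g04540*, *At5g39520*, *At1g07590*, *At2g37130*, *At2g20595* and *At4g15750*, rose by 2.74 to 3.28. For 6 of the 15 the bud mean lay under 6. All 15 stayed called whichever array was left out.

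Cell wall genes changed in both directions. Of 37 measured expansin and *XTH* genes of 67, 8 were higher and 3 lower, with a median change of 0.03, so the list as a whole stayed near the median of all probe sets while single members moved far. Through the platform table these were 4 higher and 1 lower of 28 (median 0.02), and by the study's tables there were 4 higher and 2 lower of 9 (median 0.14). After *XTH19*, the largest rise was in *EXLA1*, from 8.24, 8.53 and 7.53 to 10.78, 11.11 and 11.003 (2.87, SE 0.24, adjusted p = 0.000605). *TCH4*, a touch-induced *XTH*, read 6.39, 6.73 and 7.95 against 8.64, 9.04 and 10.53, with replicate C highest at either stage. Its change of 2.38 (SE 0.54, adjusted p = 0.0338) lost its call without stage 12 replicate A or B or stage 13 replicate B or C (adjusted p 0.0627 to 0.108). *EXPA24*, an expansin, went the other way, from 10.61, 9.92 and 10.05 to 8.27, 7.73 and 6.15 (-2.81, SE 0.49, adjusted p = 0.011). Other members named after their values were seen include *XTH7*, at 9.91, 10.12 and 9.60 against 12.25, 12.13 and 12.32, and *XTH18*, at 4.13, 4.27 and 4.20 against 6.34, 6.52 and 6.50. *XTH4* rose by 1.18 (SE 0.15, adjusted p = 0.00325). *XTH33* (1.51) missed the call at adjusted p = 0.125 and passed it with the replicate letter as a block (adjusted p = 0.00809) and without stage 13 replicate A (2.08). Among 5 measured pectin methylesterase and polygalacturonase genes of 27, only *PME2* was called, higher by 1.03 (SE 0.12, adjusted p = 0.00234). It is named through the study's tables, and it fell just short of 2-fold without stage 12 replicate B or stage 13 replicate B or C (0.97 to 0.99). *ADPG1*, a polygalacturonase of dehiscence zones, read 9.51, 6.78 and 9.46 against 6.54, 5.88 and 5.66. The low reading in stage 12 replicate B went with an adjusted p of 0.0626, and with the replicate block *ADPG1* was lower (adjusted p = 0.00314), as it was without that array (-3.46). The pectin methylesterase gene *ATPMEPCRB* (1.38, adjusted p = 0.168) was higher with the block (adjusted p = 0.00112) and without stage 12 replicate A (1.97).

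Calls among auxin response genes were mostly upward, and most of them lie in genes that the study had picked from these arrays. Of 19 measured *SAUR* genes of 78, 6 were higher and 2 lower (median 0.66). By the platform table it was 1 of 3 higher (median 0.04), and of those in the study's tables, 5 of 16 higher and 2 lower (median 0.68). *SAUR10* rose from 4.29, 4.10 and 4.24 to 5.42, 5.23 and 6.16 (1.40, SE 0.23, adjusted p = 0.00847), and *SAUR63*, which promotes organ elongation, from 7.80, 8.48 and 8.57 to 9.19, 9.90 and 9.91 (1.39, SE 0.26, adjusted p = 0.0156). Replicate A was the lowest array of *SAUR63* at either stage. *SAUR12* fell steeply, from 9.51, 9.62 and 9.85 to 5.99, 6.35 and 6.16 (-3.49, SE 0.14, adjusted p = 3.14e-05), the largest fall of its family. Without stage 13 replicate B, 2 *SAUR* genes were higher and 2 lower by count, and without stage 13 replicate C, 3 were higher and 2 lower. *SAUR63* was not called without either of them (adjusted p 0.0773 and 0.0573). *SAUR63*, *SAUR64*, *SAUR65* and *SAUR66* are close relatives, and how far their probe sets share signal was not tested. *SAUR27*, at 1.41 (adjusted p = 0.12), passed with the replicate block (adjusted p = 0.000567) and without stage 13 replicate A (1.97), where 8 *SAUR* genes were higher.

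Aux/IAA genes encode repressors that are themselves induced by auxin. Of 13 measured of 29, 3 were higher and 0 lower, and all 3 were among the 6 named through the study's tables (median 1.10), against 0 of 7 named through the platform table (median -0.01). *IAA6* read 7.34, 8.34 and 8.44 in buds and 9.50, 10.65 and 11.34 in open flowers (2.46, SE 0.47, adjusted p = 0.0167), with replicate A lowest at either stage. *IAA17* rose evenly, from 9.31, 8.96 and 9.05 to 10.42, 10.29 and 10.21 (1.20, SE 0.12, adjusted p = 0.00124), and *IAA1* rose by 1.17 (SE 0.24, adjusted p = 0.0239). *IAA19* was level in buds, at 10.32, 10.26 and 10.27, and spread widely in open flowers, at 10.53, 11.31 and 12.08. It was not called (1.02, SE 0.33, adjusted p = 0.127), but it was with the replicate block (adjusted p = 0.0177), as was *IAA3* (1.03, adjusted p = 0.104 and 0.000194 with the block), so that 5 members were higher in that fit. Leaving out stage 13 replicate A gave 5 as well, and leaving out stage 13 replicate B gave 1, since *IAA6* (adjusted p = 0.0783) and *IAA1* (0.0855) then missed. *IAA1* also missed without any of the stage 12 arrays or stage 13 replicate C. Of 11 measured *GH3* and auxin synthesis genes of 31, 2 were higher and 0 lower, both named through the platform table, while the median change was -0.12 and 5 of the 11 changes were positive. *GH3.17*, which joins auxin to glutamate, read 7.71, 8.25 and 8.19 against 9.40, 10.26 and 10.34 (1.95, SE 0.26, adjusted p = 0.00394). *GH3.1* rose by 1.36 (SE 0.27, adjusted p = 0.0194) and was not called without stage 12 replicate A or C or stage 13 replicate B (adjusted p 0.0605 to 0.0783).

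The auxin response factors and MYB factors that the mutants lack, and their relatives, moved little or in different directions. *ARF6* read 9.77, 9.73 and 9.14 in buds and 9.57, 9.41 and 9.14 in open flowers, and *ARF8* read 9.94, 10.57 and 10.32 against 9.90, 10.12 and 10.21. In both, the stages overlapped, with changes of -0.17 (SE 0.19, adjusted p = 0.779) and -0.20 (SE 0.17, adjusted p = 0.683), and *ARF16* was at -0.11 (adjusted p = 0.743). *MYB21* read 12.47, 12.38 and 12.36 in buds and 12.31, 12.38 and 12.39 in open flowers, and its stages overlapped (-0.04, SE 0.10, adjusted p = 0.921). Its partner *MYB24* was lower in open flowers, at 8.73, 8.50 and 8.37 against 10.24, 9.47 and 9.99 (-1.37, SE 0.20, adjusted p = 0.00535). *MYB57*, a close relative that acts with them in stamen filaments, was higher, at 10.59, 11.61 and 12.47 against 8.20, 9.63 and 9.71, with replicate A lowest at either stage. Its rise of 2.38 (SE 0.53) had an adjusted p of 0.0318 and kept its call only when stage 13 replicate A was left out, with adjusted p values of 0.0535 to 0.119 without each of the other 5 arrays. *MYB108* varied more within stage 12 (9.68, 8.01 and 10.12) than between the stages (0.07, SE 0.48, adjusted p = 0.978). *BPE*, a bHLH factor that limits petal size, fell from 11.28, 10.82 and 11.45 to 10.15, 9.97 and 10.09 (-1.11, SE 0.17, adjusted p = 0.00604), though without stage 12 replicate C its fall was -0.98. Of 11 regulators measured of 23, 1 was higher and 2 lower. Members named through the platform table were 2, of which 1 was lower (median -0.41). The study's tables named the other 9, of which 1 was higher and 1 lower (median -0.11).

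Only 4 jasmonate genes were called, all in the direction of closed buds. Of 10 measured biosynthesis genes of 27, 2 were lower and 0 higher (median -0.39), and of 15 measured repressor, *MYC* and turnover genes of 30, 2 were lower and 0 higher (median -0.55). All 4 calls were in members named through the study's tables (2 of 6 and 2 of 13), with 0 of 4 and 0 of 2 members called among those named through the platform table. Of all 512 probe sets named through the study's tables, 64 were lower, so calls of this kind were common among them and are no result about these lists. *LOX4*, a lipoxygenase of jasmonate synthesis, read 7.67, 7.63 and 7.84 in buds and 6.14, 5.93 and 6.01 in open flowers (-1.68, SE 0.11, adjusted p = 0.000235). *LOX3* fell by 1.08 (SE 0.15, adjusted p = 0.00451), and by 0.98 without stage 13 replicate C. *LOX2* read 12.77, 12.71 and 12.86 against 11.95, 11.99 and 12.12. Its arrays did not overlap and its adjusted p was 0.00385, but its fall of 0.76 was under 2-fold. Further along the pathway, *OPR3* was at -0.54 (adjusted p = 0.0505) and *AOS* at -0.47 (adjusted p = 0.133), and *JMT*, which makes methyl jasmonate, was at 0.50 (adjusted p = 0.367). Of the JAZ repressors, *JAZ5* went from 9.69, 9.29 and 9.67 to 7.51, 7.45 and 7.70, a 3.99-fold fall (adjusted p = 0.000277), and *JAZ3* fell by 1.05 (SE 0.13, adjusted p = 0.00239). *JAZ3* fell just short of 2-fold without stage 12 replicate C or stage 13 replicate A (-0.97). *MYC2*, the transcription factor that JAZ proteins bind, was at 0.27 (SE 0.13, adjusted p = 0.324). *DAD1* has no probe set named here and is not reported.

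Genes of floral scent included the largest rise of all named genes. Of 11 measured terpene and benzenoid genes of 29, 5 were higher and 1 lower (median 0.81). By the platform table it was 1 higher and 1 lower of 3 (median 0.13). Of those named through the study's tables, 4 of 8 were higher (median 1.11), beside 52 of all 512 probe sets so named. *CYP71B31* has been given above. *CYP76C3*, another P450 of linalool metabolism, read 10.94, 10.62 and 10.44 in buds and 12.73, 12.96 and 12.87 in open flowers (2.19, SE 0.14, adjusted p = 0.000235). *CYP76C1* read 9.56, 7.62 and 8.87 against 10.73, 10.03 and 10.66, with replicate B lowest at either stage. Its rise of 1.79 (SE 0.44, adjusted p = 0.0491) lost its call without stage 12 replicate C or any of the stage 13 arrays (adjusted p 0.0935 to 0.145). *TPS10*, a linalool synthase gene named after its values were seen, went from 11.37, 11.50 and 10.68 to 12.62, 12.86 and 12.77 (1.57, SE 0.21, adjusted p = 0.00368). The sesquiterpene synthase genes parted ways. *TPS21* rose from 10.04, 10.46 and 10.05 to 11.61, 11.68 and 11.52 (1.42, SE 0.14, adjusted p = 0.000984), while *TPS11* read 11.79, 12.13 and 11.96 and then 11.96, 12.26 and 12.05 (0.13, SE 0.13, adjusted p = 0.737), so that its stages overlapped. *BSMT1*, which makes methyl benzoate and methyl salicylate, was the only one lower, from 8.10, 8.18 and 9.28 to 6.46, 6.17 and 6.78 (-2.05, SE 0.31, adjusted p = 0.00652).

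In nectaries, *SWEET9* exports sucrose into nectar. It read 11.17, 11.14 and 10.12 in buds and 12.59, 13.06 and 12.63 in open flowers, a 3.86-fold rise (1.95, SE 0.28, adjusted p = 0.00516). Among 9 measured nectary genes of 17 it was the 1 call, with 0 calls among the 5 in the study's tables. *CWINV4*, the cell wall invertase of nectaries, read 11.36, 11.50 and 11.03 against 11.42, 12.17 and 11.54, and its stages overlapped (0.41, SE 0.21, adjusted p = 0.388). *CRC*, a YABBY factor needed for nectaries to form, read 10.07, 9.59 and 9.48 against 9.88, 9.73 and 9.60 (0.02, SE 0.17, adjusted p = 0.977). Of 23 measured sugar transporter and invertase genes of 52, 3 were higher and 1 lower (median 0.29). Members named through the platform table were 17, of which 2 were higher and 1 lower (median 0.23). The study's tables named the other 6, of which 1 was higher (median 0.38). In this list the SWEET family held both extremes. Beside *SWEET5*, which fell, *SAG29* (a SWEET transporter of senescing tissue, also called SWEET15) rose from 7.91, 7.36 and 8.09 to 9.73, 9.81 and 10.91 (2.37, SE 0.33, adjusted p = 0.00425). *CWINV1*, another cell wall invertase, rose from 6.67, 6.47 and 6.40 to 7.94, 8.78 and 8.89 (2.03, SE 0.24, adjusted p = 0.00223). *SWEET7* showed how much a single bud array could differ, at 8.80, 6.26 and 8.60 in buds and 6.29, 6.71 and 5.94 in open flowers, and was not called (-1.57, SE 0.61, adjusted p = 0.209). It was named after its values were seen.

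**Figure D3:**
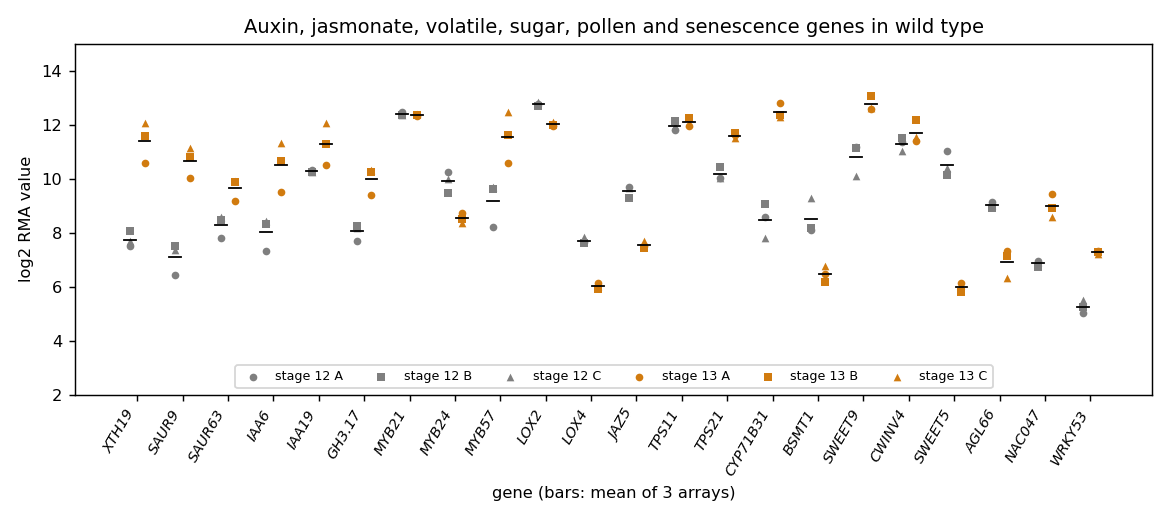
Log2 RMA values (vertical axis) of 22 named genes in the 6 wild-type arrays, with circles for replicate A, squares for B, triangles for C and bars for the mean of 3 arrays. Grey is stage 12 and orange stage 13. *CYP71B31*, *XTH19* and *SAUR9* lie far higher at stage 13 and *SWEET5* far lower, while *MYB21* and *TPS11* overlap between the stages and the open-flower values of *IAA19* reach from 10.53 to 12.08.

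Transcripts of the female gametophyte and of small secreted peptides appeared among the rises, and these families were picked out after their values were seen. EC1 peptides are secreted by the egg cell at fertilisation, and both EC1 genes measured were higher. *EC1.5* read 5.39, 5.26 and 4.85 in buds and 6.65, 6.88 and 6.64 in open flowers (1.56, SE 0.16, adjusted p = 0.00115), and *EC1.2* rose by 1.38 (SE 0.17, adjusted p = 0.00248). The open-flower arrays of *EC1.5* lay closer together than its bud arrays. *DD46*, a gene known from embryo sacs, went from 6.80, 6.99 and 6.87 to 8.29, 8.45 and 8.41 (1.50, SE 0.10, adjusted p = 0.000277). *RALFL28*, of the RALF peptide family, was the only one of 11 RALF genes called, at 4.90, 4.73 and 4.92 against 7.06, 7.70 and 7.62 (2.61, SE 0.18, adjusted p = 0.000246). Of 8 measured LCR genes, whose products resemble plant defensins, *LCR80* and *LCR24* were higher and 0 were lower (median 0.17). *LCR80* read 5.78, 5.94 and 5.17 in buds and 8.23, 8.65 and 8.24 in open flowers, and *LCR24* rose by 1.57 (SE 0.27, adjusted p = 0.0103). *CYP78A9*, a P450 of reproductive organ growth, rose from 6.39, 6.46 and 6.31 to 8.88, 8.31 and 8.61, and *OSR1* (ORGAN SIZE RELATED 1) from 7.43, 6.91 and 7.85 to 9.42, 9.58 and 9.42. The list of carpel, style and transmitting tract genes showed no such movement, with 0 calls among 11 measured of 35 (median 0.02), led by *BEE3* at 0.97 (adjusted p = 0.00771, under 2-fold) and *HAF* at 0.28 (adjusted p = 0.723).

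Genes of senescence were called only in the direction of open flowers. Of 19 measured of 46, 5 were higher and 0 lower (median 0.49). By the platform table, 3 of 13 were higher and all 13 changes were positive, and of those in the study's tables, 2 of 6 were higher (median 0.14). *NAC047*, a NAC factor of leaf senescence, read 6.95, 6.72 and 6.93 in buds and 9.44, 8.93 and 8.60 in open flowers (2.12, SE 0.20, adjusted p = 0.000964). *WRKY53* read 5.04, 5.25 and 5.49 against 7.33, 7.30 and 7.21, so its open flowers agreed closely (2.02, SE 0.13, adjusted p = 0.000235). *WRKY6* rose by 1.15 (SE 0.15, adjusted p = 0.00327). *ORE1*, a NAC regulator of age-dependent cell death, rose from 7.68, 6.55 and 7.52 to 8.74, 8.15 and 8.45 (1.20, SE 0.30, adjusted p = 0.0471) and was not called without any 1 of 5 arrays. Without stage 12 replicate B its change was 0.85, under 2-fold, and without stage 12 replicate C or a stage 13 array its adjusted p was 0.0758 to 0.126. Named after their values were seen, *GAMMA-VPE* and *BETA-VPE*, vacuolar processing enzyme genes, rose by 1.31 and 1.10. The dark-inducible and sugar-starvation genes did not follow, with *SAG29* the 1 call among 13 measured of 25 (median 0.05). There were 0 calls among the 4 named through the study's tables.

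Ethylene and gibberellin lists were thinly measured. Of 5 ethylene genes of 37, 2 were higher, 1 of 3 by the platform table and 1 of 2 by the study's tables. *ARL*, which promotes organ growth, read 7.95, 8.24 and 8.78 against 10.02, 10.23 and 10.26 (1.85, SE 0.20, adjusted p = 0.00158), and *TEM1*, a RAV-type repressor of flowering, rose by 1.18 (SE 0.20, adjusted p = 0.0105), or by 0.98 without stage 12 replicate B. Of 7 gibberellin genes of 40, 1 was higher and 1 lower, both gibberellin-regulated GASA peptide genes. Both were among the 3 named through the study's tables. *GASA4* fell from 13.53, 13.29 and 13.34 to 12.14, 12.36 and 12.04 (-1.20, SE 0.12, adjusted p = 0.00123), whereas *GASA1* rose from 10.68, 10.52 and 11.06 to 11.80, 11.67 and 12.03 (1.08, SE 0.16, adjusted p = 0.00631), or by 0.96 and 0.98 without stage 12 replicate B or stage 13 replicate C.

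Surface lipid genes went both ways. Of 11 measured cutin, wax and suberin genes of 70, 3 were higher and 1 lower (median 0.44). Members named through the platform table were 2, of which 1 was higher (median 0.71). The study's tables named the other 9, of which 2 were higher and 1 lower (median 0.44). *AAE11*, an acyl-activating enzyme gene, read 10.54, 11.34 and 10.79 in buds and 12.24, 12.77 and 13.17 in open flowers (1.83, SE 0.27, adjusted p = 0.00565). *KCS1*, which elongates very-long-chain fatty acids, rose from 10.66, 10.23 and 10.35 to 11.41, 11.64 and 11.98 (1.26, SE 0.17, adjusted p = 0.00427), while *KCS17*, of the same enzyme family, fell from 11.08, 9.10 and 11.19 to 7.42, 7.20 and 6.38 (-3.46, SE 0.54, adjusted p = 0.00728). As in other falls, stage 12 replicate B was the lowest bud array of *KCS17*. *WSD1*, a wax ester synthase gene, was just past 2-fold at 1.02 (SE 0.16, adjusted p = 0.00743), and at 0.89 to 0.98 without stage 12 replicate B or C or stage 13 replicate A.

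Of 15 measured flavonoid and hydroxycinnamoyl spermidine genes of 44, 2 were higher and 0 lower (median 0.13). Both were among the 10 named through the platform table. *BAN*, an anthocyanidin reductase gene, rose from 6.52, 6.90 and 6.56 to 9.03, 8.73 and 7.85 (1.88, SE 0.28, adjusted p = 0.00604). *UF3GT*, a flavonoid glycosyltransferase gene, sat at the edge of 2-fold (SE 0.14, adjusted p = 0.00481), with changes of 0.97 and 0.87 without stage 12 replicate B or stage 13 replicate C. *DFR* (1.05, adjusted p = 0.0558) passed with the replicate block (adjusted p = 0.0165) and without stage 13 replicate C (1.27). Aliphatic glucosinolate genes, which make defence compounds from methionine, were called only downward, with 4 lower and 0 higher of 15 measured of 34 (median -0.48). These were 1 of 6 by the platform table (median -0.22) and 3 of 9 by the study's tables (median -0.80). *IMS2*, of side chain elongation, read 7.65, 6.15 and 8.03 against 4.63, 4.55 and 4.63 (-2.67, SE 0.42, adjusted p = 0.00734), and *AOP2*, which modifies the side chain, 6.86, 7.50 and 7.68 against 5.53, 5.74 and 6.26 (-1.50, SE 0.25, adjusted p = 0.00945). *AOP2* missed without stage 13 replicate B (adjusted p = 0.0524). *AKN2*, of sulfate activation, fell by 1.26 (SE 0.20, adjusted p = 0.0082), and *GSTU20*, a glutathione transferase gene, by 1.13 (SE 0.13, adjusted p = 0.0023). *CYP83A1* (-1.02, adjusted p = 0.266) passed with the block (adjusted p = 0.000739) and in no fit that left out 1 array. The 1 aquaporin measured, *TIP4;1* of the vacuolar membrane, was lower by 1.36 (SE 0.22, adjusted p = 0.00774) and is named through the study's tables.

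Several lists showed no call in either direction. Among 12 photosynthesis genes of 65 the changes lay between -0.40 and 0.07 (median -0.09), with *PRK* at -0.40 (adjusted p = 0.107) and *LHCB4.3* at -0.38 (adjusted p = 0.21). Among 8 cell division genes of 61 they lay between -0.29 and 0.04 (median -0.17), led by *ICU2* at -0.29 (adjusted p = 0.308) and *AUR2* at -0.26 (adjusted p = 0.506). Of 4 secondary wall and endothecium genes of 34, *IRX15-L* came closest at -0.99 (adjusted p = 0.00287), ahead of *GUT2* at -0.32 (adjusted p = 0.387). Of 3 floral identity genes of 12, *LFY* read 6.25, 5.26 and 7.18 in buds and 4.68, 4.70 and 4.92 in open flowers, with a wide spread among buds (-1.47, SE 0.41, adjusted p = 0.0762) and a call with the replicate block (adjusted p = 0.00395) or without stage 12 replicate B (-1.95), and *RBE* was at -0.24 (adjusted p = 0.431). *GI*, the only clock gene measured of 35, was at 0.19 (adjusted p = 0.729). Floral organ identity markers proper, *AP1* to *SEP3*, have no probe set named here, so the identity of the organs was not checked with them, whereas *CRC* and *SPT* of the carpel gave a mean level of 8.32 to 8.81 in buds and 8.36 to 8.57 in open flowers.

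**Figure D4:**
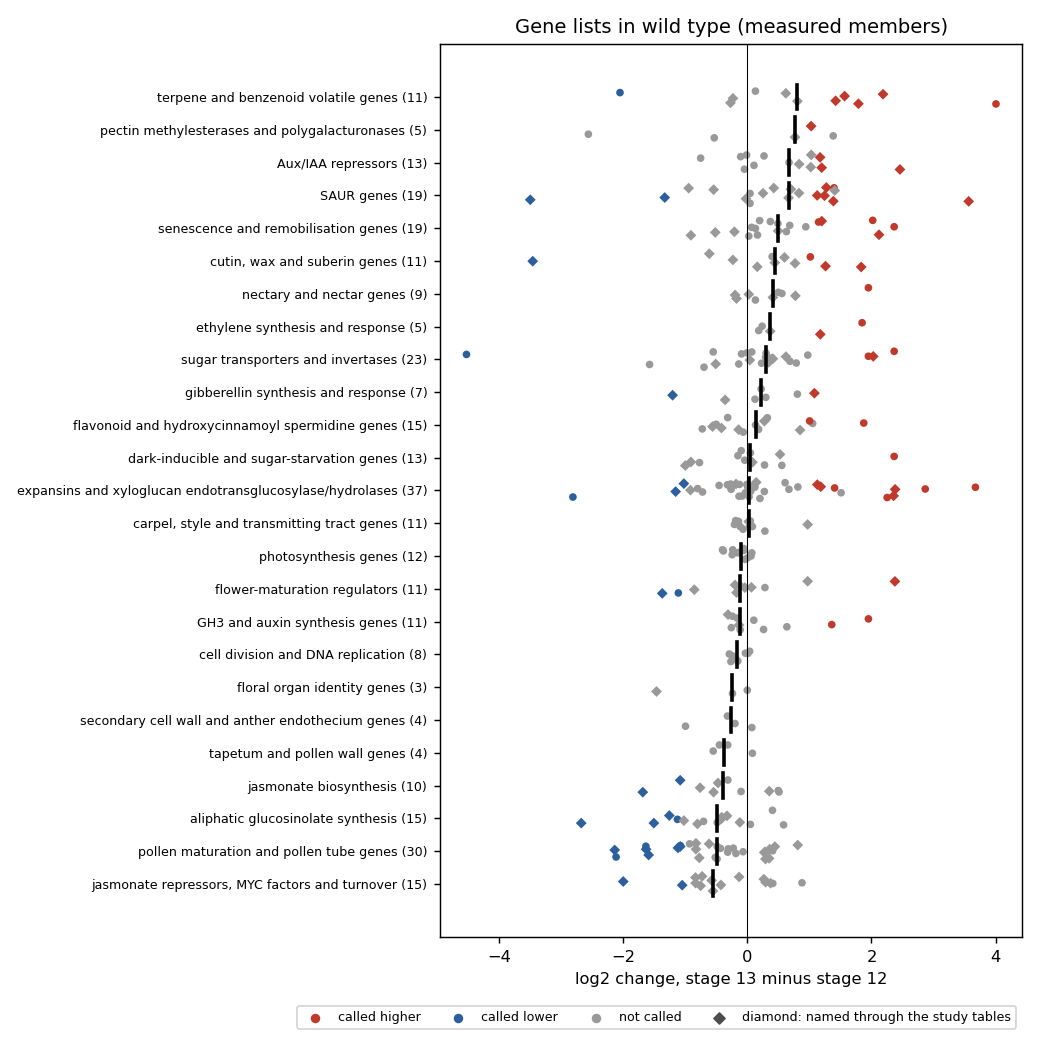
Log2 change from stage 12 to stage 13 (horizontal axis) of every measured member of the lists with at least 3 measured members (numbers in brackets), ordered by the list's median (black bar). Circles are named through the platform table and diamonds through the study's tables, red is called higher, blue called lower and grey not called, and vertical scatter within a list has no meaning. Terpene and benzenoid genes lie to the right (median 0.81), jasmonate repressors and pollen genes to the left (medians -0.55 and -0.49), and photosynthesis and cell division genes near 0.

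Whether the wild-type change differed from that of each mutant was asked with an interaction term, which compares stage changes that share no array. Since the mutant flowers stay closed, the term sets wild-type opening against a stage step without opening. Effects of the genotype and of the missing opening cannot be told apart. Against *arf6-2 arf8-3*, 222 probe sets differed (0.976% of those tested, at a difference of at least 1 on the log2 scale), of which 165 changed more positively in wild type and 57 more negatively. With the replicate block the number was 411. Against *myb21-5 myb24-5*, 244 differed (1.07%), 123 more positively and 121 more negatively. This second comparison rests on an array whose label is in doubt. The stage 13 array labelled as replicate A of *myb21-5 myb24-5* differed from *arf6-2 arf8-3* stage 13 replicate A by an SD of 0.121 over probe sets, less than any pair of arrays within a group (0.236 to 0.551). Without it, 595 differed (2.62%), 184 more positively and 411 more negatively in wild type.

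In the mutants, the median change of the wild-type rises was small. Over the 429 probe sets called higher in wild type, whose median change there was 1.48, the median change was 0.33 in *arf6-2 arf8-3* and 0.40 in *myb21-5 myb24-5* without the doubtful array (0.39 with it). The interaction was called for 143 of the 429 against *arf6-2 arf8-3*, all with the larger rise in wild type, and without the doubtful array for 153 against *myb21-5 myb24-5*, of which 149 had the larger rise in wild type. For 106 it was both. In the falls, the medians of the mutants lay further from 0. Over the 437 probe sets called lower (median -1.53), the median was -0.68 in *arf6-2 arf8-3* and -0.63 in *myb21-5 myb24-5* (-0.82 with the doubtful array), and the interaction was called for 43 and 126, respectively, all with the larger fall in wild type, and for 33 in both. These counts reuse the wild-type arrays that chose the probe sets and are a description.

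Of the 15 largest rises, 8 differed from *arf6-2 arf8-3* and 7 from *myb21-5 myb24-5* without the doubtful array. The 15 rises and 15 falls were chosen by their change on the wild-type arrays that also enter the difference. This choice favours a larger change in wild type. *CYP71B31* changed by -0.11 and -0.00 in the mutants against 4.00 in wild type. The difference was 4.11 (SE 0.36, adjusted p = 0.000275) from *arf6-2 arf8-3* and 4.01 (SE 0.40, adjusted p = 0.000893) from *myb21-5 myb24-5*. *XTH19* changed by 0.09 and 0.42 in the mutants and differed by 3.59 (SE 0.42, adjusted p = 0.00237) and 3.25 (SE 0.47, adjusted p = 0.0057). *SAUR9* stayed at 0.15 in *arf6-2 arf8-3* (difference 3.41, SE 0.42, adjusted p = 0.00333) and rose by 1.31 in *myb21-5 myb24-5* (difference 2.26, SE 0.52, adjusted p = 0.0413). *EXLA1*, *At5g64120*, *At1g35190* and *At1g07590* also differed from both mutants, and *At5g10770* from *arf6-2 arf8-3* (2.57, SE 0.41, adjusted p = 0.0119). The remaining 7 rises were not called against either mutant. Among these, *At3g24510*, *LCR80* and *At2g20595* changed by 2.29, 1.89 and 1.66 in *arf6-2 arf8-3* and by 3.70, 2.85 and 3.21 in *myb21-5 myb24-5*, against 3.28, 2.75 and 2.75 in wild type. A difference that missed the call does not show that the genotypes acted alike, since the errors of these differences reached 0.78.

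None of the 15 largest falls was called different from *arf6-2 arf8-3*, with adjusted p values of 0.0652 to 0.958. Against *myb21-5 myb24-5* without the doubtful array it was 3 of 15. *At3g28840* changed by -1.32 in *myb21-5 myb24-5* and by -4.28 in wild type (difference -2.96, SE 0.62, adjusted p = 0.0294), *At5g22430* by -2.19 and -4.15 (difference -1.96, SE 0.30, adjusted p = 0.00725) and *At5g55720* by -3.55 and -4.96 (difference -1.40, SE 0.30, adjusted p = 0.0307). All 15 fell in each mutant by the point estimate, *SWEET5* with changes of -1.74 in *arf6-2 arf8-3* and -2.74 in *myb21-5 myb24-5*. *At1g66850* changed by -4.32 in *arf6-2 arf8-3*, -6.49 in *myb21-5 myb24-5* and -5.50 in wild type, and *At1g23240* by -3.79, -5.53 and -4.43.

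**Figure D5:**
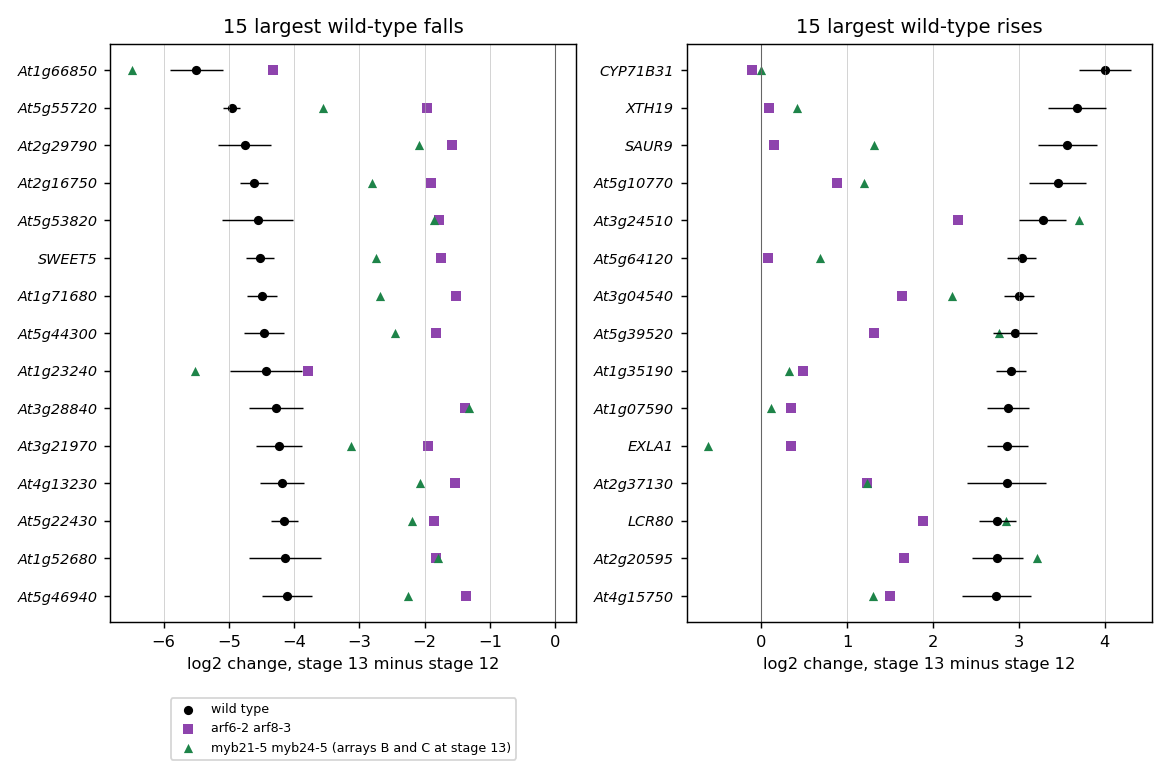
Log2 change from stage 12 to stage 13 (horizontal axis) of the 15 largest wild-type falls (left) and rises (right), with black circles for wild type (bars: standard error), purple squares for *arf6-2 arf8-3* and green triangles for *myb21-5 myb24-5* with stage 13 replicates B and C. *CYP71B31* stays near 0 in either mutant, *At1g66850* and *At1g23240* fall by 3.79 or more in either, and most other falls are shallower in the mutants.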

How the data were processed

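Transcripts of closed buds (stage 12) and newly open flowers (stage 13) were measured on ATH1 arrays from 1000 ng of total RNA per array. After scanning with MAS5, the authors made the deposited log2 expression values by background correction and RMA normalisation, 1 value per probe set. The methods name the Affymetrix GeneChip Operating Software and Genespring GX for these steps. The deposited table holds no columns of the authors' own comparisons, and no further scaling was applied. These values were fitted with limma 3.58.1 (lmFit and eBayes, statmod 1.5.0, R 4.3.3) as 2 group means over the 6 wild-type arrays, two-sided, with Benjamini-Hochberg adjustment over 22746 probe sets and a call at an adjusted p under 0.05 and 2-fold. Interaction terms used the 12 arrays of wild type and 1 mutant, with at least 1 on the log2 scale. The fit of the 2 wild-type groups was also run on simulated arrays with known changes. Their means and spreads were taken from the wild-type arrays, and each array was drawn independently. The interaction terms were not simulated.

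Of the probe sets tested, 13513 match 1 gene in the platform annotation, 503 several and 512 only a gene of the study's tables, and 8218 stayed without a name. Symbols were updated through RefSeq. For a gene with several probe sets, the one with the highest mean over the 6 arrays was used. The genes named are the 15 largest rises and falls among called probe sets that match 1 gene and whose stages do not overlap, up to 4 called members of each of 27 lists (or 2 where none was called), and the genes the study names for flower maturation. Others are said to be named after their values were seen. The genes, lists and tests were chosen with earlier results of these data known. No sequences are printed.

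Whether the letters A, B and C pair the arrays was checked by correlating same-letter deviations from the stage means. The correlations were 0.655, 0.348 and 0.608, so arrays of the same letter deviated alike, which the labels do not explain. Correlations between arrays of unlike letters were not computed, and whether the samples were paired by design is not known. The fit reported has no replicate block, since the methods name none, so its standard errors and adjusted p values leave this likeness out. A fit with the block was an alternative, and it kept all 429 higher and 437 lower calls. The methods' t-test, other arrays in the fit, variance models, weights, thresholds, a low-value filter, other scaling and leaving out each array were further alternatives. An array gives no read depth, and 3 arrays per stage limit the precision. P-values weigh a change against the spread between these arrays, which limma moderates with the spread of the other probe sets.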

Additional observations from a re-analysis of the deposited data

Results flagged for a closer look

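The stage change differed between wild type and *arf6-2 arf8-3* for 222 probe sets and between wild type and *myb21-5 myb24-5*, with all 12 arrays as labelled, for 244. Both rest on a test of the difference itself (the interaction term in limma). Among the 30 genes with the largest changes in wild type, the following differences, wild type minus mutant on the log2 scale, passed that test. The 30 were chosen on the same wild-type arrays, which favours a larger change in wild type.

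For *CYP71B31*, the linalool-oxidising P450, the difference was 4.11 from *arf6-2 arf8-3* and 4.09 from *myb21-5 myb24-5*. For *XTH19* it was 3.59 and 3.87, for *EXLA1* 2.52 from *arf6-2 arf8-3*, and for *SAUR9* 3.41 from *arf6-2 arf8-3*. With all 12 arrays as labelled, *EXLA1* (adjusted p = 0.154) and *SAUR9* (adjusted p = 0.0641) were not called against *myb21-5 myb24-5*.

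For *At5g64120* (a class III peroxidase) the differences were 2.95 and 2.75 from the 2 mutants in the same order, for *At1g35190* 2.42 and 2.52, and for *At1g07590* 2.52 and 2.69. *At5g10770* differed by 2.57 from *arf6-2 arf8-3*.

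Among the falls, *At3g28840* differed by -3.11 and *At5g22430* by -2.05 from *myb21-5 myb24-5*, with the larger fall in wild type. Values without the doubtful array, labelled as replicate A of *myb21-5 myb24-5* at stage 13, stand beside these genes in the account of the mutants, and the part of that array in the counts is given below.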

How the results depend on the processing

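The 429 higher and 437 lower calls, 866 in all, became 91 and 58 (149) under the methods' t-test with Benjamini-Hochberg adjustment, 957 and 911 (1868) with no fold cutoff, and 94 and 139 (233) past 4-fold. Under the other alternatives the counts moved by less than 1.5 times. Without 1 wild-type array, between 359 and 510 probe sets were higher and between 331 and 521 lower, 690 to 939 in all, and 301 of the rises and 278 of the falls were called whichever array was left out. With the replicate block, 475 and 480 were called, with all 429 and 437 among them. Of 117 called genes followed (those named and all called list members), 117 were called with the block, 115 with 17 arrays and 97 with all 18 arrays in the fit, 24 under the adjusted t-test, and 88 whichever wild-type array was left out. No direction was reversed under these settings.

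For *arf6-2 arf8-3*, the 222 differences became 411 with the block and 136 to 399 without 1 array, 399 being the count without *arf6-2 arf8-3* stage 12 replicate C. For *myb21-5 myb24-5*, the 244 became 350 with the block and 100 to 595 without 1 array, 595 being the count without the doubtful mutant array (replicate A at stage 13). Counts of list members under the block, under other scaling and without each array were added after seeing the data. The cause of these shifts was not tested, apart from the thresholds themselves.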

Other observations

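Gene families were counted by symbol after their values were seen. They overlap the lists, so calls given above are counted here again. These are *CYP71B31*, *CYP76C3* and *CYP76C1* of the scent genes, *MYB57* and *MYB24* of the regulators, and *WRKY6* and *WRKY53* of the senescence genes. Over all probe sets tested, 1.89% were higher and 1.92% lower. Of 48 cytochrome P450 genes measured, 5 were higher in open flowers and 1 lower (median 0.15), of 49 UDP-glycosyltransferase genes 2 were higher and 0 lower (median -0.01), of 14 MYB genes 1 was higher and 1 lower, and of 8 WRKY genes 2 were higher and 0 lower. *CYP71B38* read 7.43, 8.54 and 8.09 in buds and 10.13, 10.29 and 10.39 in open flowers, a rise of 2.25 (SE 0.25, adjusted p = 0.00172 from limma). *AtS40-3* rose from 6.45, 6.07 and 6.24 to 9.29, 9.23 and 8.14 (2.64, SE 0.29, adjusted p = 0.00163). *BAM5*, a beta-amylase gene, fell from 10.52, 10.48 and 10.59 to 8.73, 8.85 and 8.79 (-1.74, SE 0.10, adjusted p = 0.000116). Among the called probe sets, 152 of those higher and 129 of those lower have no gene name here.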
